A study of Mus musculus with 4 samples.

Results

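The 8 genes described here encode the enzymes that shorten the poly(A) tails of messenger RNA, together with their closest partner subunit. They were taken by name as Cnot6, Cnot6l, Cnot7, Cnot8, Pan2, Pan3, Parn and Pde12, and each of them was found in the deposited tables, as 8 of 23312 genes per library. The values came from RNA sequencing of B220+CD43+ pro-B cells, the early B-lineage cells of mouse bone marrow in which immunoglobulin heavy chain genes are rearranged. The strain was C57BL/6. All mice carried RERTCre, a tamoxifen-inducible Cre recombinase, and all were injected with 1 mg tamoxifen on days 1, 2, 4 and 7 and analysed on day 10. One group was Cnot3 fl/fl, with loxP-flanked alleles of Cnot3, and the other was Cnot3 +/+, with wild-type alleles. There were 2 libraries per genotype, which the series describes as individual mice. The series title calls the targeted cells Cnot3 (∆/∆). The sources used here do not give the promoter that drives RERTCre, the age of the mice or the exons of Cnot3 that the loxP sites flank. The comparison asked how the transcripts of the deadenylase genes differed when Cnot3, a subunit of the complex that carries 4 of them, was targeted.

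Most eukaryotic mRNAs end in a poly(A) tail, and removal of that tail is the usual first step of their decay. The CCR4-NOT complex is built on the scaffold protein Cnot1 and holds one nuclease of the CAF1 type, Cnot7 or Cnot8, and one of the CCR4 type, Cnot6 or Cnot6l, while Cnot2 and Cnot3 form a module without nuclease activity. The PAN2-PAN3 complex also shortens tails and is thought to act early, on long tails coated with poly(A)-binding protein. Parn trims the tails of mRNAs and the ends of small non-coding RNAs in the nucleus, and Pde12 removes poly(A) in mitochondria. Tail length and deadenylase protein or activity were not measured here. The values are levels of the enzymes' own mRNAs.

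In each library 14684 to 15126 genes were above 0. The deposited values were FPKM, fragment counts that the unit scales by transcript length and by library size, so the absolute depth is unknown and no counting interval can be given. The spacing of the lowest values put the FPKM of 1 fragment in Cnot3 fl/fl replicate 2 at about 0.748 of that in Cnot3 +/+ replicate 1. This ratio was shared within 0.5% by 13.1% of 1763 low genes. It reflects depth only if the values were scaled by library size alone, which the sources used here do not state. Cnot3 +/+ replicate 1 also stood apart in sex-linked transcripts, with 16.0 FPKM of the Y-linked gene Ddx3y and 0.0242 FPKM of Xist, which ranged from 54.3 to 63.1 FPKM elsewhere. Transcripts of the targeted gene Cnot3 stood at 39.0 and 40.3 FPKM under the label Cnot3 fl/fl and at 41.6 and 39.3 FPKM under the label Cnot3 +/+. Because the flanked exons are unknown, such a whole-gene value cannot check the labels, so the directions below are those between libraries labelled with each genotype. The 10 B-lineage markers of the sorted cell type were present in all libraries. They summed to 752.4 and 784.1 FPKM with Cnot3 fl/fl, and with Cnot3 +/+ to 960.5 and 1244 FPKM. Plasmacytoid dendritic cells also carry B220, and 10 of their markers summed to 8421 to 9927 FPKM with Cnot3 fl/fl, and with Cnot3 +/+ to 10090 to 10550 FPKM.

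Of the 8 deadenylase genes, Cnot6 fell, Parn rose and 6 did not pass the test (limma on log2(FPKM + 1), Benjamini-Hochberg adjusted p under 0.05 over 11017 genes). Over all genes tested, 9.49% passed in either direction, 6.22% as higher and 3.28% as lower in Cnot3 fl/fl. The summed level of the 8 genes was 238.0 ± 6.40 FPKM with Cnot3 fl/fl and 238.4 ± 11.2 FPKM with Cnot3 +/+ (SD, n = 2 each), and the genotypes overlapped. The median absolute log2 fold change of the 8 genes was 0.183, beside 0.223 over all genes tested. In 7 of the 8 genes both Cnot3 fl/fl libraries lay on one side of both Cnot3 +/+ libraries, 5 lower and 2 higher, and over all genes tested this held for 64.4%. In whole-population libraries such as these, fewer cells of a type and less RNA per cell cannot be told apart.

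**Figure D1:**
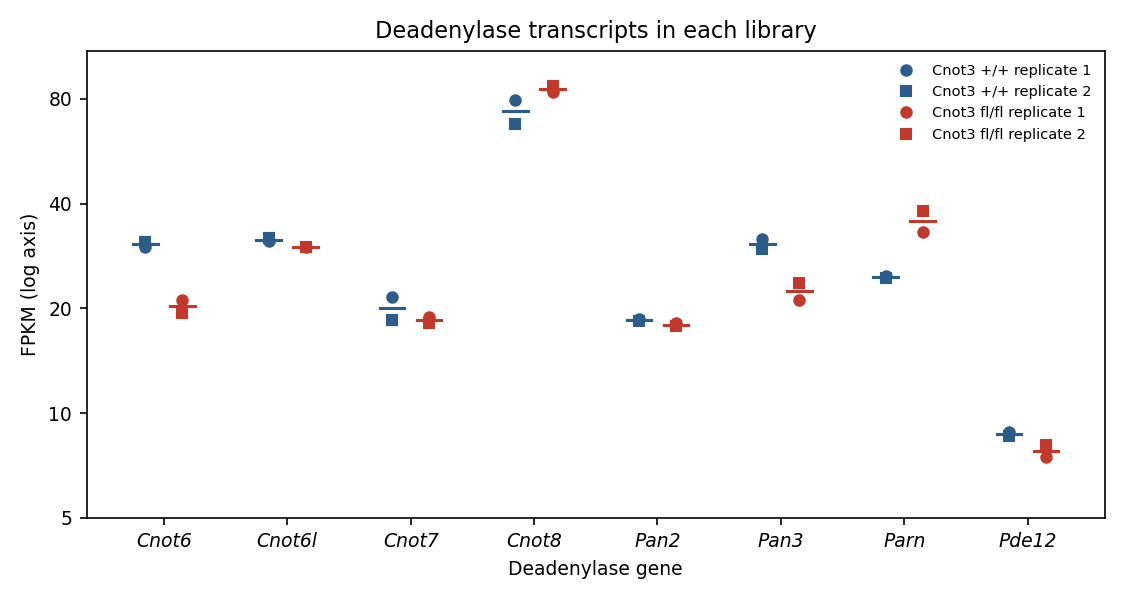
FPKM of the 8 deadenylase genes (log axis) in each library, with Cnot3 +/+ in blue and Cnot3 fl/fl in red, circles for replicate 1, squares for replicate 2 and short lines for the mean of 2 libraries. Cnot8 lies highest and Pde12 lowest in all 4 libraries, and Cnot6, Pan3 and Parn show the widest gaps between the genotypes.

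Cnot6 and Cnot6l encode the CCR4-type nucleases of CCR4-NOT, which share the fold of the exonuclease-endonuclease-phosphatase family and compete for the same place in the complex. Replicates 1 and 2 of Cnot3 +/+ held 30.0 and 31.1 FPKM of Cnot6, and those of Cnot3 fl/fl held 21.2 and 19.3 FPKM. The genotypes did not overlap, Cnot3 fl/fl being lower, and the gap was wider than the spread within either genotype. Cnot6 fell 1.51-fold in mean FPKM, and by limma the log2(FPKM + 1) values gave a log2 fold change of -0.57 (SE 0.084, 95% interval -0.79 to -0.35, adjusted p = 0.040). For Cnot6 the q-value was 0.069 in the authors' deposited table, which marked none of the 8 genes as significant and 6.59% of its 12154 tested genes. The limma call was lost when any 1 library was left out. Few of all genes tested passed in those fits, so the loss says little about Cnot6 itself. The log2 fold change stayed between -0.63 and -0.51 in those fits. The call was also lost with no filter on low values (limma adjusted p = 0.068) and without a trend in the prior (0.054). Over all genes, 4 passed as higher and 1 as lower with no filter, and 242 and 69 without a trend.

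For Cnot6l, both Cnot3 fl/fl libraries held 30.0 FPKM, and Cnot3 +/+ replicates held 31.1 and 31.9 FPKM. Its libraries did not overlap between the genotypes, but the difference was small, with a log2 fold change of -0.07 that did not pass (95% interval -0.26 to 0.12, limma adjusted p = 0.53). In Cnot3 +/+ libraries the paralogs were at nearly equal levels, and Cnot6 made up 49.1% and 49.4% of their sum. In Cnot3 fl/fl libraries it made up 41.4% and 39.2%. The summed FPKM of the pair was 50.3 ± 1.29 in Cnot3 fl/fl and 62.1 ± 1.33 in Cnot3 +/+ (SD, n = 2 each). The log2 ratio of Cnot6 to Cnot6l was lower in both Cnot3 fl/fl libraries, by 0.524 on average (from -0.0447 to -0.569). An exact two-sided permutation test of this difference gave p = 0.333, the smallest p that 2 against 2 libraries allow, so the test cannot show that the paralogs changed differently.

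The paralogs are similar in sequence, and reads that fit both copies would blur their values. The longest coding sequences of Cnot6 and Cnot6l, of 1671 and 1665 bases in GENCODE M21 (GRCm38), were identical at 73.6% of aligned positions. Those of Cnot7 and Cnot8, of 855 and 876 bases, were identical at 72.3%. In neither pair did any stretch of 50 bases occur in both coding sequences. The longest identical stretch along the alignment of each pair is shown. It does not limit where reads aligned with mismatches could fit both members. In the first pair it covers coding positions 1300 to 1319 of Cnot6 and 1294 to 1313 of Cnot6l, and in the second, positions 463 to 482 of both Cnot7 and Cnot8.
Cnot6 and Cnot6l: cataaagacttcaaggaact
Cnot7 and Cnot8: tcatttcacagtggttatga

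Across whole transcripts, no 50-base window of Cnot6, Cnot6l, Pan2, Pan3 or Parn occurred in a transcript of another gene on either strand. For Cnot8, 7.98% of windows occurred in the pseudogene transcript Gm18860 on the same strand, so reads from those stretches could be split between them whether or not strand was used. For Cnot7, 3.86% of windows occurred in Zdhhc2 on the opposite strand, and for Pde12, 6.38% occurred in other genes, most of them in Arf4 on the opposite strand. The sources used here do not say whether the authors' values use strand, so the values of Cnot7 and Pde12 are uncertain in that respect.

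Cnot7 and Cnot8 encode the CAF1-type nucleases, which belong to the DEDD family and bind Cnot1 directly. Cnot8 was the most abundant deadenylase transcript in every library, with 83.6 and 87.4 FPKM for Cnot3 fl/fl, and for Cnot3 +/+ 79.6 and 67.9 FPKM. Both Cnot3 fl/fl values lay above both Cnot3 +/+ values, but the Cnot3 +/+ libraries differed from each other by more than the nearest values of the genotypes did. The log2 fold change of 0.22 did not pass (95% interval -0.06 to 0.49, limma adjusted p = 0.22). Its size rested on the Cnot3 +/+ libraries, at 0.33 without replicate 1 and 0.10 without replicate 2. The Cnot3 fl/fl libraries held 18.9 and 18.2 FPKM of Cnot7 and the Cnot3 +/+ libraries 21.6 and 18.5 FPKM, and it was the only one of the 8 genes whose genotypes overlapped. Its log2 fold change was -0.10 (95% interval -0.37 to 0.17, limma adjusted p = 0.52). In the files' locus column Cnot7 shares 1 merged interval with Mtmr7 and Vps37a.

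Within this pair Cnot8 held most of the transcript level. It made up 78.7% and 78.6% of the summed FPKM of Cnot7 and Cnot8 in Cnot3 +/+ replicates 1 and 2, and 81.5% and 82.8% in Cnot3 fl/fl replicates 1 and 2. Although the Cnot8 values of the Cnot3 +/+ libraries were 79.6 and 67.9 FPKM, their Cnot7 to Cnot8 ratios were nearly equal, at 0.271 and 0.273. The Cnot3 fl/fl ratios were 0.226 and 0.208, below both. The difference in the log2 ratio was -0.327, and the exact permutation test again gave its smallest possible p of 0.333. The 4 CCR4-NOT nucleases together summed to 154.3 ± 0.821 FPKM with Cnot3 fl/fl and 155.9 ± 9.09 FPKM with Cnot3 +/+ (SD, n = 2 each), with overlapping genotypes.

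Pan2 encodes the catalytic DEDD-family subunit of PAN2-PAN3, and Pan3 encodes its partner, which has no nuclease activity of its own and brings the complex to poly(A) tails. The Cnot3 fl/fl libraries held 18.1 and 17.8 FPKM of Pan2 and the Cnot3 +/+ libraries 18.6 and 18.4 FPKM. This was the smallest difference among the 8 genes, with a log2 fold change of -0.04 (95% interval -0.24 to 0.16, limma adjusted p = 0.73). Of Pan3, Cnot3 fl/fl libraries held 21.1 and 23.7 FPKM and Cnot3 +/+ libraries 31.7 and 29.6 FPKM. Both Cnot3 fl/fl values lay well below both Cnot3 +/+ values, with a 1.37-fold difference in mean FPKM. The log2 fold change of -0.44 narrowly missed the threshold (SE 0.094, 95% interval -0.68 to -0.19, limma adjusted p = 0.056). It passed with quantile normalization (limma adjusted p = 0.043), with a robust prior (0.044) and with a minimum mean of 5 FPKM (0.049). It did not pass under the other 10 alternatives, including those with 1 library left out, where few of all genes tested passed. The q-value of Pan3 was 0.17 in the authors' deposited table. The catalytic subunit was below its partner in every library, and the ratio of Pan2 to Pan3 was 0.861 and 0.751 in Cnot3 fl/fl and 0.589 and 0.622 in Cnot3 +/+ libraries. The log2 ratio was higher in Cnot3 fl/fl by 0.411 (exact permutation test, two-sided, p = 0.333, the smallest possible). With 3 pairs compared, the Benjamini-Hochberg adjusted p of each ratio was also 0.333.

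**Figure D2:**
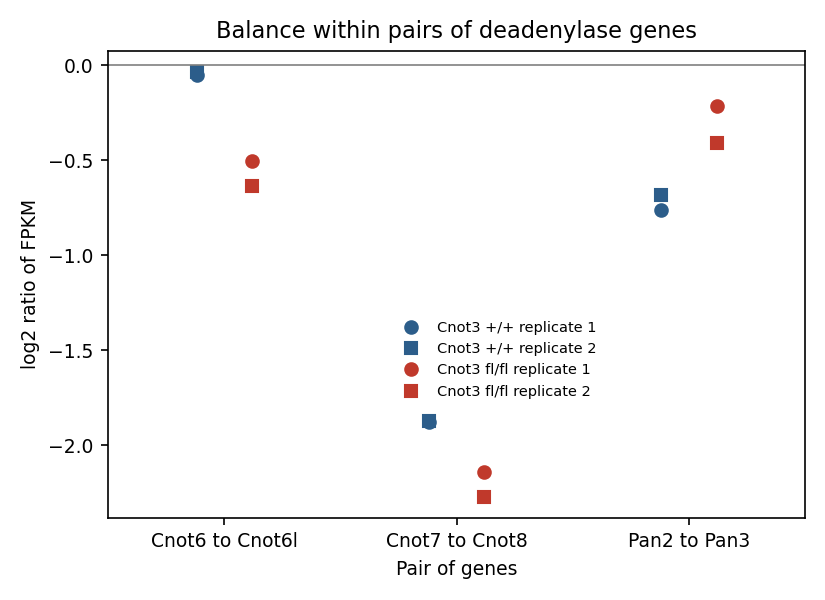
Log2 ratio of FPKM within 3 pairs of genes in each library, with Cnot3 +/+ in blue and Cnot3 fl/fl in red, circles for replicate 1 and squares for replicate 2. The Cnot3 fl/fl libraries lie below the Cnot3 +/+ libraries for Cnot6 to Cnot6l and for Cnot7 to Cnot8, and above them for Pan2 to Pan3.

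Parn and Pde12 act outside CCR4-NOT and PAN2-PAN3. Parn, a DEDD-family nuclease that also binds the mRNA cap, reached 33.1 and 38.2 FPKM with Cnot3 fl/fl, and with Cnot3 +/+ 24.8 and 24.4 FPKM. The genotypes did not overlap, Cnot3 fl/fl being higher, and the Cnot3 +/+ libraries were close to each other. Parn rose 1.45-fold in mean FPKM, with a log2 fold change of 0.51 (SE 0.096, 95% interval 0.26 to 0.76, limma adjusted p = 0.046). It was the only one of the 8 genes that passed as higher, although Cnot8 also lay higher in both Cnot3 fl/fl libraries. The q-value of Parn was 0.093 in the authors' deposited table. Its limma call was lost when any 1 library was left out, and the log2 fold change ran from 0.41 to 0.61. As for Cnot6, few of all genes tested passed in those fits. The call was also lost with no filter on low values (limma adjusted p = 0.079), without a trend in the prior (0.066) and with the replicate number added to the fit (0.055). Pde12, a nuclease of the same family as Cnot6, was the least abundant of the 8 transcripts, with 7.47 and 8.07 FPKM for Cnot3 fl/fl, and for Cnot3 +/+ 8.85 and 8.61 FPKM. Its libraries did not overlap between the genotypes, and its log2 fold change of -0.15 did not pass (95% interval -0.40 to 0.10, limma adjusted p = 0.33).

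**Figure D3:**
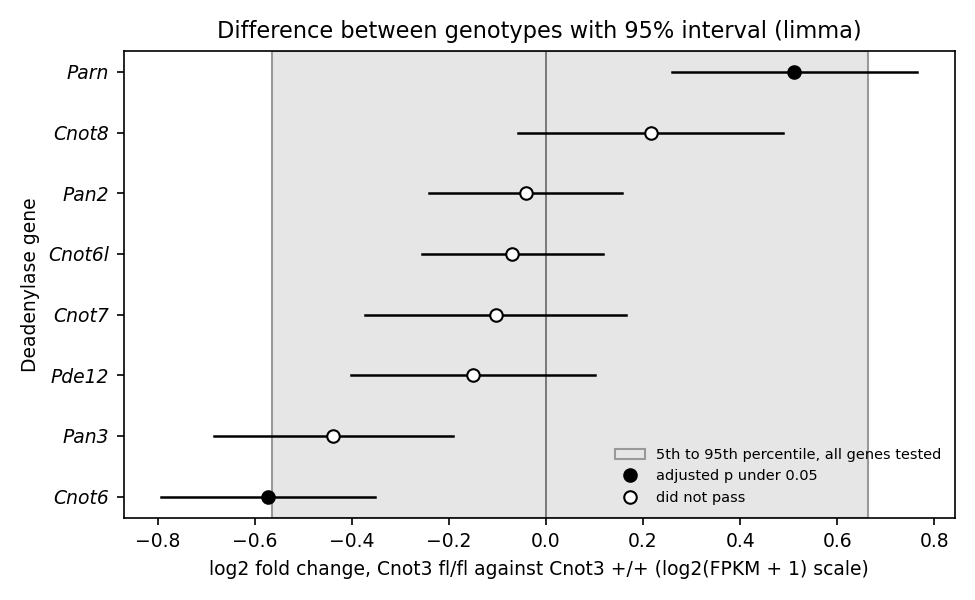
Log2 fold change of the 8 genes between Cnot3 fl/fl and Cnot3 +/+ with the 95% interval from limma, where filled points passed at an adjusted p under 0.05 and the grey band spans the 5th to 95th percentile over all genes tested, from -0.565 to 0.664. The filled points are Cnot6 at -0.57 and Parn at 0.51, and the intervals of Cnot6, Pan3 and Parn do not reach 0.

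Differences of these sizes were found in many genes. A larger absolute log2 fold change than that of Cnot6 was found in 11.4% of all genes tested, larger than that of Parn in 14.6% and larger than that of Pan3 in 20.4%. Markers of cell types were counted in the same libraries, where 6.22% of all genes tested passed as higher and 3.28% as lower. Of 10 B-lineage markers 5 fell and none rose. Of 10 plasmacytoid dendritic cell markers 1 rose and 1 fell. Of 10 neutrophil and monocyte markers 3 rose and none fell, 1 of which, Ctsg, reached the tested level only through Cnot3 fl/fl. The 10 summed to 1224 to 1404 FPKM for Cnot3 fl/fl and 898.7 to 1193 FPKM for Cnot3 +/+. Most of each sum was Ly6c2, at 997.8 and 1246.6 against 756.9 and 996.1 FPKM, which did not pass (limma adjusted p = 0.29). In 7 of the 10 both Cnot3 fl/fl libraries lay higher, while S100a8, S100a9 and Lyz2 overlapped. Of 10 T and NK cell markers 2, Cd8a and Cd5, rose and none fell, with sums of 648.7 to 773.3 FPKM against 541.2 to 551.1 FPKM. Cd8a alone held 129.4 and 134.7 FPKM against 15.7 and 25.7 FPKM. In 5 of the 10 both Cnot3 fl/fl libraries lay higher and in 1, Cd4, lower, while Cd3e, Cd3g, Nkg7 and Klrb1c overlapped. Of 10 erythroid markers 3 reached the level tested and none of those passed, with sums of 23.4 to 41.4 FPKM against 29.8 to 65.7 FPKM. No marker in these lists was at 0 in all 4 libraries. The part of these cells in the values of Cnot6, Pan3 and Parn was not tested.

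In the order of levels, Cnot8 came first and Pde12 last in both genotypes. In Cnot3 +/+ libraries Cnot6l, Pan3 and Cnot6 followed Cnot8 at 31.5, 30.6 and 30.6 FPKM, and neighbours among them overlapped. Parn came next at 24.6 FPKM, below Cnot6 in every library, then Cnot7 at 20.1 FPKM and Pan2 at 18.5 FPKM, which overlapped with each other. In Cnot3 fl/fl libraries Parn came second at 35.6 FPKM, above Cnot6l at 30.0 FPKM in both libraries. Pan3 and Cnot6 followed at 22.4 and 20.3 FPKM and overlapped, ahead of Cnot7 and Pan2 at 18.6 and 18.0 FPKM. FPKM is scaled to length, but the annotation is not given, and the shared sequences of Cnot7, Cnot8 and Pde12 could affect their values. The order between genes is therefore approximate. Among all genes tested, 90.7% had a lower mean than Cnot8 and 33.6% a lower mean than Pde12, and the other 6 genes lay between 56.5% and 72.1%.

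The regions before the start sites of the called genes are shown for reference to sequence features that the choice of genes did not use. RefSeq gives windows for 7 of the 8 genes, 12 windows in all (GRCm38.p6). Below are the 250 bases before the annotated start of Cnot6 (chr11:49712723-49712972, minus strand) and of Parn (chr16:13668171-13668420, minus strand), each written 5′ to 3′ along the gene. Capitals mark matches on either strand to the GC box GGGCGG or to the CCAAT box CCAAT.
Cnot6: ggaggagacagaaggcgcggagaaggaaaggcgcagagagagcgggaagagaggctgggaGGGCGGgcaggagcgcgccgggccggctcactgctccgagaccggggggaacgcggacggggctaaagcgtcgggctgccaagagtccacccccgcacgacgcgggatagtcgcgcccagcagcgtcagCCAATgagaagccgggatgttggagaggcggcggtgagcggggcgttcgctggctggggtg
Parn: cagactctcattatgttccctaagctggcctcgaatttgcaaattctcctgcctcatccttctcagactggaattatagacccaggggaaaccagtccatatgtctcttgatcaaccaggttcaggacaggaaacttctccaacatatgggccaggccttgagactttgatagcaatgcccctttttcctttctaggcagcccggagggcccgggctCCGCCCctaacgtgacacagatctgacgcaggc
The Cnot6 window was 70.8% G or C and held 29 CpG dinucleotides, whereas the Parn window was 52.0% G or C and held 6, beside medians of 52.4% and 6 over 32851 windows. The 12 windows are not separate, since Cnot6l has 3 and Cnot8 has 4 and some of them overlap. The GC box occurred in windows of 5 genes, 8 of the 12 windows, and in 32.7% of all windows, and the CCAAT box in 2 of the 12, those of Cnot6 and Pan2, and in 33.8% of all windows. An E box (CACGTG) was in none of the 12 and in 6.02% of all windows. The ETS-type motif CCGGAAGT was in the Pde12 window and in 2.88% of all windows, and the NRF1 motif was in 1 Cnot8 window and in 3.74% of all windows. Matches were counted on both strands, and no binding was measured.

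In the files' mm9 locus column, Cnot6 spans chromosome 11 from 49488211 to 49526212, and Cnot8 lies on the same chromosome from 57917654 to 57932096. Cnot6l lies on chromosome 5 from 96504756 to 96591009 and Pan3 on the same chromosome from 148242155 to 148360077. Pan2 spans chromosome 10 from 127740390 to 127758414, Parn chromosome 16 from 13538056 to 13668263, and Pde12 chromosome 14 from 27483602 to 27489332. Cnot7 lies on chromosome 8 in the merged interval from 41577891 to 41720146. The sources used here do not say whether these positions count from 0 or 1. None of the 8 genes shares a chromosome with Cnot3, which lies on chromosome 7.

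The genes whose values over the 4 libraries lay nearest to those of the called members were found by the root mean square distance of log2(FPKM + 1) values, each centred on its own mean, among tested genes of at least 5 FPKM. Nearest to Cnot6 were Hnrnph3, which encodes an RNA-binding protein, at 0.0117, Uxs1, an enzyme of UDP-xylose synthesis, at 0.0125, and Ift80, an intraflagellar transport gene, at 0.0193. Hnrnph3 had 14.2 and 12.9 FPKM with Cnot3 fl/fl, and with Cnot3 +/+ 19.9 and 20.7 FPKM. Nearest to Parn were H2-DMa, which encodes a chain of the peptide-loading factor for MHC class II, at 0.00659, Ubald1 at 0.0131 and Aspscr1 at 0.0162. H2-DMa had 251.3 and 291.2 FPKM with Cnot3 fl/fl, and with Cnot3 +/+ 190.0 and 188.9 FPKM. With 4 libraries, closeness of profiles describes these libraries only.

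Other members of the same nuclease families were measured. Of 5 such genes 4 were tested, and 1 fell, none rose and 3 did not pass, with a median log2 fold change of -0.024 beside -0.009 over all genes tested. Ccrn4l, which encodes nocturnin, long described as a deadenylase, fell by 0.92 on the log2 scale, with 0.573 and 0.644 FPKM for Cnot3 fl/fl and 1.82 and 2.30 FPKM for Cnot3 +/+ (limma adjusted p = 0.045). Its Cnot3 fl/fl values lay under the minimum mean of 1 FPKM, so it was tested only because of its level in Cnot3 +/+. The authors' deposited table gave it a q-value of 0.0053 and marked it significant. Angel1 and Angel2, relatives of Cnot6 of the same family, had log2 fold changes of 0.20 and -0.17 (limma adjusted p = 0.27 and 0.19). Toe1, a DEDD-family nuclease that processes small nuclear RNAs, had 0.12 (limma adjusted p = 0.38). Pnldc1, a relative of Parn, was below the minimum, with 0.682 and 0.833 FPKM for Cnot3 fl/fl and 0.174 and 0.289 FPKM for Cnot3 +/+.

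Over all genes tested, 6.22% passed as higher and 3.28% as lower. Of the 8 CCR4-NOT subunits and partners without nuclease activity, 1 rose, none fell and 7 did not pass, with a median log2 fold change of -0.034. The gene that rose was Tnks1bp1, which encodes a CCR4-NOT-associated protein, with 9.73 and 10.5 FPKM for Cnot3 fl/fl and 6.79 and 5.91 FPKM for Cnot3 +/+ (limma log2 fold change 0.60 at adjusted p = 0.045). It was also marked significant in the authors' deposited table, at a q-value of 0.044. Cnot2, the partner of Cnot3 in the complex, was at 52.9 and 55.1 against 45.4 and 45.6 FPKM (limma log2 fold change 0.24 at adjusted p = 0.095). The scaffold gene Cnot1, to which the CAF1-type nucleases bind, gave -0.08 on the log2 scale (limma adjusted p = 0.52).

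Among 25 genes for proteins that bring deadenylases to mRNAs or coat the tail, 22 were tested, and 1 fell, none rose and 21 did not pass, with a median log2 fold change of -0.26. The shares over all genes tested were 3.28% lower and 6.22% higher. In 10 of the 22 both Cnot3 fl/fl libraries lay lower and in 0 higher, beside 31.7% and 32.7% of all genes tested. Pabpc1, the major cytoplasmic poly(A)-binding protein, which Pan3 contacts, had 152.0 and 156.6 FPKM with Cnot3 fl/fl, and with Cnot3 +/+ 245.3 and 234.1 FPKM (limma log2 fold change -0.63 at adjusted p = 0.036). Its q-value was 0.076 in the authors' deposited table, not marked significant. Tnrc6c, a microRNA effector that binds both deadenylase complexes, was at 14.8 and 15.0 against 21.8 and 19.3 FPKM (limma adjusted p = 0.055). Pabpc4 and Rc3h1 also lay lower without passing (limma log2 fold change -0.66 and -0.38 at adjusted p = 0.081 and 0.069). The genotypes overlapped for Tob1, Tob2, Btg1 and Btg2, whose proteins bind the CAF1-type nucleases, and for Zfp36, Zfp36l1 and Zfp36l2, whose proteins recruit CCR4-NOT. For Tob1, replicates 1 and 2 held 10.2 and 20.5 FPKM with Cnot3 fl/fl and 12.0 and 26.7 FPKM with Cnot3 +/+. Zfp36, which encodes a protein that takes CCR4-NOT to AU-rich mRNAs, was at 319.1 and 903.0 against 287.0 and 614.8 FPKM. In both genotypes the library labelled replicate 2 was the higher one for all 7 genes, whereas Cnot6 and Pan3 differed in opposite directions between the replicates of the genotypes.

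Of 14 genes for enzymes that add poly(A) or terminal nucleotides, 11 were tested, and 1 rose, none fell and 10 did not pass, with a median log2 fold change of -0.017. Beside this list and the next, 6.22% of all genes tested passed as higher and 3.28% as lower. Fam46a, a non-canonical poly(A) polymerase gene, rose from 5.31 and 4.68 FPKM in Cnot3 +/+ to 8.84 and 8.43 FPKM in Cnot3 fl/fl libraries (limma log2 fold change 0.69 at adjusted p = 0.041), and the authors' deposited table marked it significant at a q-value of 0.018. The canonical nuclear poly(A) polymerase gene Papola gave -0.27 on the log2 scale (limma adjusted p = 0.12). Of 18 genes for decapping and exonuclease factors, a list that mixes cytoplasmic mRNA decay with nuclear enzymes, 2 rose, none fell and 16 did not pass. The list had a median log2 fold change of 0.15. In 11 of the 18 both Cnot3 fl/fl libraries lay higher and in 4 lower, beside 32.7% and 31.7% of all genes tested. Dcps, Edc3, Edc4, Nudt16 and Dis3l lay higher without passing (limma adjusted p = 0.070, 0.077, 0.080, 0.082 and 0.097). Dcp2, Ddx6 and Patl1 lay lower, Xrn1 and Dcp1a overlapped, and none of these passed. A split between nuclear and cytoplasmic factors was not tested. Both genes that passed as higher encode nuclear enzymes. These were Xrn2, a nuclear 5′ to 3′ exonuclease, at 81.1 and 78.1 against 54.6 and 53.9 FPKM (limma log2 fold change 0.54 at adjusted p = 0.036), and Exosc10, a catalytic subunit of the nuclear exosome, at 58.9 and 59.3 against 44.2 and 45.1 FPKM (limma log2 fold change 0.40 at adjusted p = 0.043). The authors' deposited table gave q-values of 0.081 for Xrn2 and 0.25 for Exosc10 and marked neither as significant.

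**Figure D4:**
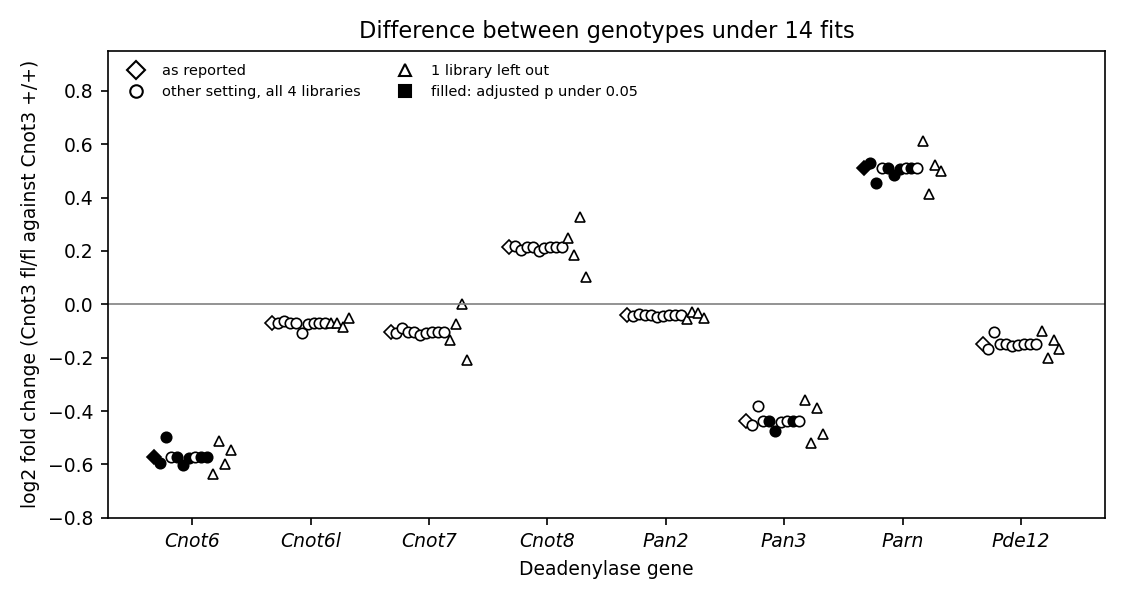
Log2 fold change of the 8 genes as reported (diamonds), with other settings on all 4 libraries (circles) and with 1 library left out (triangles), where filled symbols passed at an adjusted p under 0.05. A triangle cannot cross 0 for a gene whose genotypes did not overlap. Cnot6 stays below 0 and Parn above 0 throughout. No triangle of any gene is filled, in fits where few of all genes tested passed.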

How the data were processed

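The authors deposited 1 FPKM value per gene and library, and a comparison table with p-values and q-values per gene, per the file headers. Per the submitters' processing notes, the build was mm9 and the tools were Cufflinks 2.2.1, Cuffnorm 2.2.1, Bowtie2 2.2.3.0, TopHat2 2.0.13 and bcl2fastq 1.8.4. The sources used here do not give their roles, the annotation, how libraries were scaled or whether strand was used. Libraries were made from total RNA with a stranded mRNA kit, per the labels' protocols. Replicates are described as individual mice in the series' design text.

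FPKM values are not counts, so no count test was run. The 11017 genes whose 4 libraries averaged 1 FPKM or more were fitted as log2(FPKM + 1) by limma 3.58.1 under R 4.3.3 (lmFit, eBayes with a trend, two-sided, genotype as the only term). Each gene had 2 residual degrees of freedom and 2.69 from the prior, and intervals are 95%. The transform understates the change of low genes. Ratios of pairs used FPKM without a pseudocount. The rule for named genes took the 8 members, Cnot3, the 3 nearest profiles of each called member and, from each list, called genes and up to 2 with the smallest p. The other genes were chosen after their values were seen. Members and lists were chosen with earlier results of these data known.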

Additional observations from a re-analysis of the deposited data

How the results depend on the processing

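With 2 libraries per genotype, 13 alternatives were run for the calls. The number of deadenylase genes called higher, 1 as reported, was 0 with no filter on low values, with eBayes without trend, and with the replicate block. The number called lower, also 1, was 0 with no filter and without trend, and 2 with a minimum mean of 5 FPKM, quantile normalization or a robust prior, where Pan3 joined Cnot6. With 1 library left out, both counts ranged from 0 to 0. The lone library of a genotype is then assumed to vary like the others. The cause was not tested. Cnot6 had a log2 fold change between -0.63 and -0.50 and adjusted p between 0.027 and 0.22 over the alternatives, and Parn between 0.41 and 0.61 with adjusted p between 0.034 and 0.23. Cnot7 ranged from -0.21 to 0.00082 with 1 library left out and Cnot3 from -0.067 to 0.012, both reversing without Cnot3 +/+ replicate 1. The other 5 genes kept their direction in all 13. For these 5, Cnot6 and Parn the genotypes did not overlap, so leaving out 1 library cannot reverse the direction and does not test it. The 3 pair ratios kept their direction under their 6 alternatives, with log2 differences of -0.589 to -0.459 for Cnot6 to Cnot6l, -0.389 to -0.266 for Cnot7 to Cnot8 and 0.313 to 0.51 for Pan2 to Pan3. Their genotypes did not overlap either, so the alternatives with 1 library left out could not reverse them.

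The genotypes share replicate numbers, but the labels tie them to no litter, day or batch. Deviations of same-numbered libraries had a correlation of 0.144 across genes. With the replicate block Cnot6 had adjusted p = 0.049 and Parn 0.055. Over all genes, 685 were higher and 361 lower as reported, 456 and 270 with the block, 242 and 69 without trend, 4 and 1 with no filter, 914 and 515 with a robust prior, and between 2 and 18 higher and 0 and 13 lower with 1 library left out.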
